A study of Mus musculus with 4 samples.

Results

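The immunity-related GTPases (IRGs) are a family of interferon-inducible proteins, and 7 of its mouse genes were followed here in activated splenic B cells: Irgm1, Irgm2, Igtp, Ifi47, Iigp1, Tgtp1 and Tgtp2. They were taken by gene symbol from a table of 55401 genes. The rule uses no measured value, but the family was chosen with earlier results of these data known. All 7 were found, and all 7 had enough counts to be tested. RNA sequencing was done on 4 libraries, 2 labelled wild type and 2 labelled as lacking Adar1 in B cells through a conditional knockout (cKO). Adar1 is an enzyme that converts adenosine to inosine in double-stranded RNA. All were from C57BL/6 spleen. B cells had been enriched with anti-CD43 microbeads and kept for 36 h with antibodies to CD40 (1 µg/ml) and to IgM (10 µg/ml), which mimic T-cell help and antigen. The labels do not give the Cre driver, the deleted exons, the age of the mice, or whether libraries of a genotype came from separate mice or cultures, so the p-values below measure the spread between these libraries, which may be technical.

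IRG proteins are known from mouse cells infected with vacuole-dwelling pathogens such as Toxoplasma gondii and Chlamydia. Interferon-gamma, and to a lesser degree type I interferons, induces their genes. The regulatory IRGs, Irgm1, Irgm2 and Igtp (Irgm3), sit on the cell's own membranes and hold the effector IRGs in their inactive, GDP-bound form. The effector IRGs, among them Ifi47 (Irgd), Iigp1 (Irga6) and Tgtp1 (Irgb6), bind GTP on the pathogen's vacuole and break it. Proteins that conjugate ATG8 to lipids are needed for the effectors to reach the right membrane, and guanylate-binding proteins and ubiquitin ligases follow them there.

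The promoters are shown first because 4 of the 7 genes carry the same pair of interferon-response motifs in the same arrangement. RefSeq promoters on GRCm38.p6, from 250 bases before to 50 bases after the gene's start, were matched by symbol for 6 of the 7 genes, all but Iigp1. They were searched on both strands for GAAANNGAA, the core of the interferon-stimulated response element (ISRE), found in promoters that answer to interferon, and for TTCNNNGAA, the gamma-activated site (GAS) of genes induced by interferon-gamma. The ISRE core stood in 5 of 6 promoters and in 8.56% of all 32851 RefSeq promoters. The GAS letters stood in 4 of 6 and in 8.30% of all promoters. Each line below gives 60 bases of the gene's own strand, 5′ to 3′, with the bases of either motif in capitals.
Irgm1: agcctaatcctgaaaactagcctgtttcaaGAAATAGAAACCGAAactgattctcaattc
Igtp: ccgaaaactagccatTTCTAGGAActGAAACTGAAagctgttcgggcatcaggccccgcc
Irgm2: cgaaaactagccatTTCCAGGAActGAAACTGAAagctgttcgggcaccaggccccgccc
Tgtp1: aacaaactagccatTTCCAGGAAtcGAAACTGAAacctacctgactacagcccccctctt
Tgtp2: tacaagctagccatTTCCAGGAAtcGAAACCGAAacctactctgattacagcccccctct
The windows lie at chr11:48871421-48871480 on the minus strand for Irgm1, chr11:58199496-58199555 on the plus strand for Igtp, chr11:58214888-58214947 on the plus strand for Irgm2, chr11:48992289-48992348 on the minus strand for Tgtp1 and chr11:49064248-49064307 on the minus strand for Tgtp2.

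In Igtp, Irgm2, Tgtp1 and Tgtp2 the GAS letters came first and the ISRE core followed at the same spacing. Counted from the gene's RefSeq start, the first bases of the 2 motifs were at -45 and -34 in Igtp and at -75 and -64 in Irgm2. They were at -88 and -77 in Tgtp1 and at -81 and -70 in Tgtp2. The deposited table starts Irgm1, Irgm2 and Tgtp1 further upstream, so their printed windows lie inside those genes as counted. The Irgm1 promoter held a pair of overlapping ISRE cores and no GAS letters. The Ifi47 promoter held neither motif in its RefSeq window. The 55 bases compared hold the motifs and the bases around them, and were compared position by position, with no gaps allowed. The fixed letters of a motif that 2 lines share match by definition. The percentages are therefore not those of the surrounding bases alone. Igtp and Irgm2 were identical at 53 of 55 bases (96.4%) and Tgtp1 and Tgtp2 at 42 of 55 (76.4%). The other pairs of these 5 genes were identical at 49.1% to 70.9%. After the motifs the Tgtp2 line holds a base that the Tgtp1 line lacks, which shifts the bases that follow. The 76.4% therefore understates how alike the Tgtp lines are, and other pairs may be affected too. A match is a run of letters, and binding was not measured.

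Libraries held 17327480 to 19669651 counts, and 1 count was worth 0.0508 to 0.0577 CPM, the count rescaled to libraries of equal size. Adar, the targeted gene, did not fall: wild-type libraries had 137 and 149.97 CPM and cKO-labelled ones 218 and 233 CPM, a log2 change of 0.65 ± 0.063 (SE; edgeR quasi-likelihood adjusted p = 3.39e-08, adjusted by Benjamini-Hochberg). Gene-level counts do not separate exons, so this value does not show whether the deletion took place. The libraries are therefore called cKO-labelled throughout. Every change is given as a log2 difference of cKO-labelled over wild-type libraries ± SE, from the same test and adjustment over 14180 genes, with n = 2 libraries per genotype. Levels are the deposited FPKM (counts divided by exonic length and library total), the scale on which genes of different length can be set side by side.

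All 7 IRG genes were higher in the cKO-labelled libraries, where 12.2% of all genes tested were called higher at an adjusted p under 0.05. In all 7, both cKO-labelled libraries lay above both wild-type libraries, which held for 29.2% of all genes tested. Their median change was 1.57, from 1.06 for Ifi47 to 3.90 for Iigp1, against a median of -0.0058 over all genes tested. In bulk RNA, a change in the number of expressing cells and a change in RNA per cell cannot be told apart. Summed dendritic cell markers also went from 58.4 and 57.1 CPM to 108 and 113 CPM, and summed B-cell markers from 4445 and 4415 CPM to 3357 and 3456 CPM, and their part in the IRG rise was not tested.

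**Figure D1:**
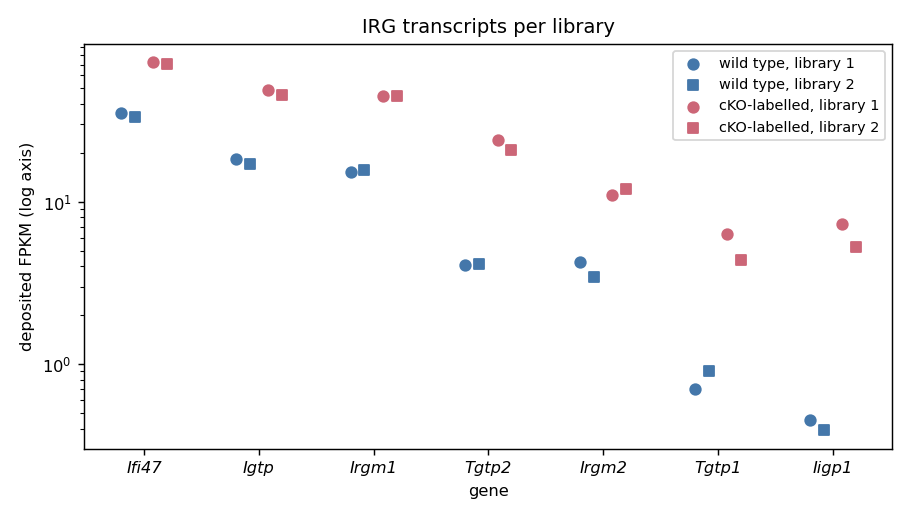
Deposited FPKM (log axis) of the 7 IRG genes in each of the 4 libraries, with genes ordered by their wild-type level; each point is 1 library. The cKO-labelled points lie above the wild-type points for every gene shown, and the gap is widest for Iigp1, which went from 0.45 and 0.39 to 7.25 and 5.26 FPKM.

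Of the regulatory IRGs, Irgm1 lies on chromosome 11 (GRCm38, 48861968 to 48871683, minus strand). Wild-type libraries had 15.26 and 15.66 FPKM of Irgm1, which encodes a regulator found on the Golgi apparatus, mitochondria and lysosomes, and cKO-labelled libraries had 45.01 and 44.55 FPKM. Libraries of a genotype were nearly equal and the genotypes far apart. The change was 1.53 ± 0.060, a 2.89-fold rise (edgeR quasi-likelihood adjusted p = 3.54e-15), and the 4 pairwise ratios of a cKO-labelled to a wild-type library lay between 2.84 and 2.93.

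Igtp (chromosome 11, 58199556 to 58207591, plus strand) encodes the regulator that sits on the endoplasmic reticulum and lipid droplets. Its level was 18.24 and 17.07 FPKM in the wild-type libraries and 48.7 and 45.38 FPKM in the cKO-labelled ones. The genotypes did not overlap, and library 1 was slightly the higher in each. The rise was 1.41 ± 0.073, or 2.66-fold (edgeR quasi-likelihood adjusted p = 4.44e-13).

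Irgm2, a regulator found on the Golgi apparatus, begins in the deposited table at 58199618 on the plus strand of chromosome 11 and ends at 58222782, which takes in most of Igtp. RefSeq starts it at 58214977. Irgm2 stood at 4.27 and 3.46 FPKM in wild type and at 10.98 and 12.04 FPKM in the cKO-labelled libraries, the lowest level of the regulatory IRGs in both genotypes. It rose by 1.57 ± 0.11, or 2.98-fold (edgeR quasi-likelihood adjusted p = 1.82e-10). The rows of Igtp and Irgm2 share 162 exonic bases on the same strand, 8.01% of Igtp's exonic bases and 4.39% of Irgm2's.

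The changes of the 3 regulatory IRGs lay close together, between 1.41 and 1.57. Their pairwise ratios overlapped: those of Igtp ran from 2.47 to 2.85, those of Irgm2 from 2.55 to 3.48, and those of Irgm1 lay inside the range of Irgm2. No test of one gene's change against another's was run.

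The 4 effector IRGs spanned a wider range, 1.06 to 3.90, with a median of 2.58. Ifi47 (chromosome 11, 49076587 to 49096974, plus strand), the IRG of highest deposited FPKM in either genotype, had the smallest change of the 7. It stood at 35.17 and 33.34 FPKM in wild type and at 72.14 and 70.68 FPKM in the cKO-labelled libraries, and rose by 1.06 ± 0.061, or 2.08-fold (edgeR quasi-likelihood adjusted p = 3.91e-12). Its highest pairwise ratio, 2.16, was below the lowest ratio of each other IRG gene.

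Iigp1 (chromosome 18, 60376027 to 60392634, plus strand), an effector much studied on Toxoplasma vacuoles, was the least abundant of the 7 in wild type, at 0.45 and 0.39 FPKM. In the cKO-labelled libraries it reached 7.25 and 5.26 FPKM. Its counts were 45 and 45 against 760 and 534, so wild-type counts were few but well above the 3-count limit of detection used here. The change of 3.90 ± 0.18, or 14.9-fold, ranked 19 of 14180 genes (edgeR quasi-likelihood adjusted p = 5.42e-14). The ratio of summed counts was 14.96, with a 95% interval of 12.1 to 18.7 that covers counting error only. It pools the libraries of a genotype and so leaves out the spread between them. PCR copies of a molecule are counted separately, which may make it too narrow even for counting error. Every pairwise ratio, from 11.7 to 18.4, exceeded every pairwise ratio of the other 6 genes.

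Tgtp1 and Tgtp2 are neighbouring, nearly identical effector genes (the Irgb6 protein is among the first IRGs to load onto Toxoplasma vacuoles) on the minus strand of chromosome 11, at 48985327 to 48994172 and 49057194 to 49064206. Tgtp2 stood at 4.09 and 4.12 FPKM in wild type and at 24.06 and 20.89 FPKM in the cKO-labelled libraries, and rose by 2.45 ± 0.099, or 5.46-fold (edgeR quasi-likelihood adjusted p = 5.78e-15). Tgtp1 stood at 0.7 and 0.9 FPKM in wild type and at 6.29 and 4.36 FPKM in the cKO-labelled libraries, and rose by 2.72 ± 0.21, or 6.57-fold (edgeR quasi-likelihood adjusted p = 9.48e-10). The genotypes did not overlap for either gene, and for both the cKO-labelled library 1 was the higher.

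The split of reads between Tgtp1 and Tgtp2 is uncertain. Of all 100-base windows in the GENCODE M21 transcripts, 73.1% of those of Tgtp1 and 76.8% of those of Tgtp2 occur letter for letter in another gene, nearly always in each other. How reads that fit both were counted is not given in the sources used here. If such reads were left out, the levels of both genes would be understated, so their levels are uncertain as well as their split. Summed into 1 gene, the pair rose by 2.50 (edgeR quasi-likelihood adjusted p = 2.86e-15). Tgtp1's share of the pair's counts was 15.8% and 19.3% in wild type and 22.2% and 18.6% in the cKO-labelled libraries, with 95% Wilson intervals of 11.8% to 20.9%, 15.2% to 24.2%, 20.3% to 24.3% and 16.5% to 20.7%. The share overlapped between genotypes. Among the other IRG genes such shared windows made up 5.16% of Igtp, 3.01% of Irgm2, 0.842% of Ifi47 and none of Irgm1 or Iigp1.

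**Figure D2:**
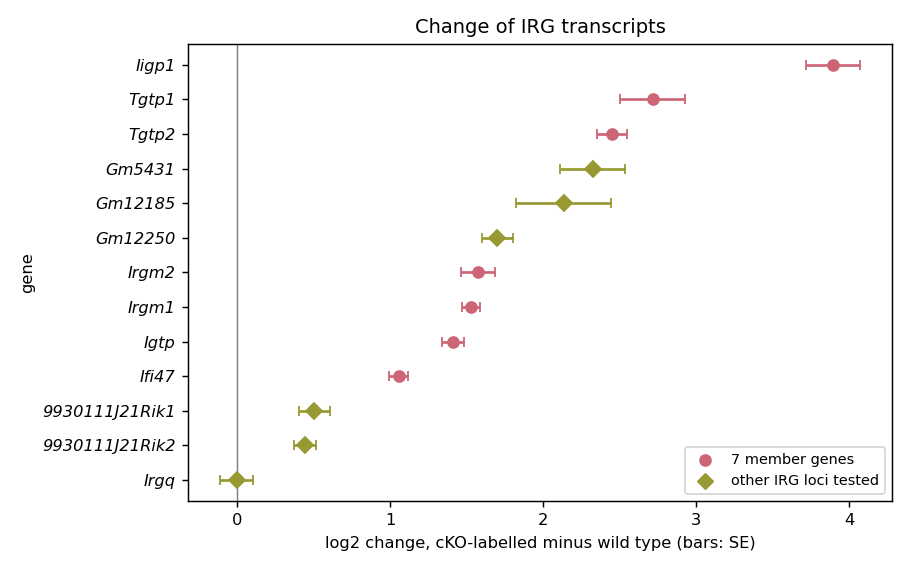
Log2 change, cKO-labelled minus wild type, with SE bars, of the 7 IRG genes (circles) and of the 6 other IRG loci that were tested (diamonds), n = 2 libraries per genotype. Iigp1 lies farthest to the right at 3.90, the 3 regulatory genes lie together between 1.41 and 1.57, and Irgq lies at 0.

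The order of levels by FPKM was Ifi47, Igtp, Irgm1, Tgtp2, Irgm2, Tgtp1 and Iigp1 in wild type. Neighbours in that order did not overlap except Tgtp2 and Irgm2. In the cKO-labelled libraries the first 5 kept their places and the 2 least abundant changed theirs, with Iigp1 ahead of Tgtp1, but these 2 overlapped. Ranks by CPM per kilobase gave the same order in both genotypes. Within a library that scale differs from FPKM by the same factor for every gene, so it is no separate check. The places of Tgtp1 and Tgtp2 rest on levels that are uncertain because of their shared sequence.

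Summed over the 7 genes, IRG transcripts amounted to 78.18 and 74.94 FPKM in the wild-type libraries and 214.43 and 203.16 FPKM in the cKO-labelled libraries. The 3 regulatory IRGs held 48.3% of that sum in each wild-type library and 48.8% and 50.2% in the cKO-labelled libraries, so their share was nearly constant. Among the effectors the make-up differed. Ifi47 held 44.99% and 44.5% in wild type and 33.6% and 34.8% in the cKO-labelled libraries. Tgtp2 went from 5.23% and 5.50% to 11.2% and 10.3%. Iigp1 went from 0.576% and 0.520% to 3.38% and 2.59%. These shares describe the libraries, and no test was made of them. All of them depend on the uncertain levels of Tgtp1 and Tgtp2.

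**Figure D3:**
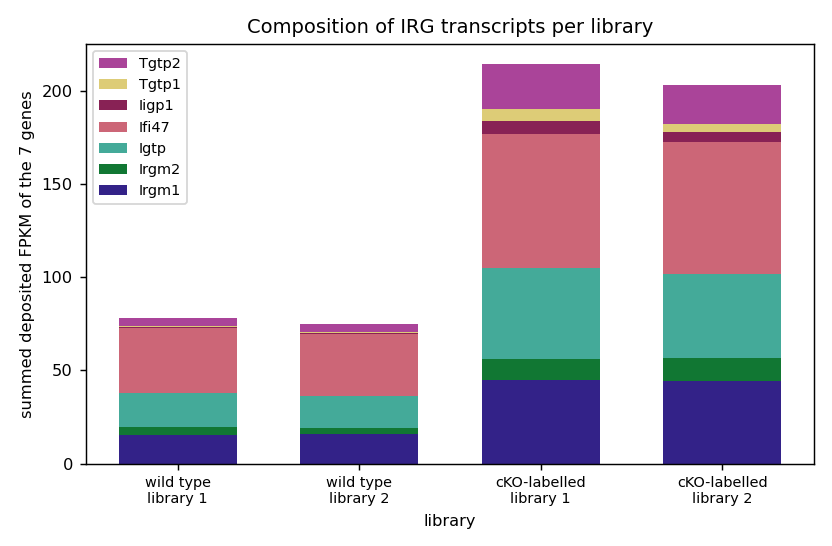
Stacked bars of the summed deposited FPKM of the 7 IRG genes in each of the 4 libraries, 1 colour per gene. The bars reach 78.18 and 74.94 FPKM in wild type and 214.43 and 203.16 FPKM in the cKO-labelled libraries, and the Ifi47 segment takes a smaller share of the taller bars.

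Within the cKO-labelled genotype, library 1 stood above library 2 for 6 of the 7 genes, and within wild type for 4. The share of all genes for which this held is not given here. The ratio of cKO-labelled library 1 to library 2 was 1.44 for Tgtp1, 1.38 for Iigp1 and 1.15 for Tgtp2, but only 1.02 for Ifi47 and 1.01 for Irgm1. For Irgm2 it was 0.911. These gaps were small beside the genotype change: without cKO-labelled library 1, Iigp1 still rose by 3.64 and Tgtp1 by 2.43.

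Beyond the 7 genes, 6 of 11 other listed IRG loci were tested, with a median change of 1.10. Of these, 5 were higher, where 12.2% of all genes tested were higher. Gm12250, which RefSeq also names Irgb10 and lists as protein coding while GENCODE lists a processed pseudogene, had 233 and 287 wild-type counts against 855 and 768. Irgb10 is known as an effector that acts on bacterial membranes. It rose by 1.70 ± 0.10 (edgeR quasi-likelihood adjusted p = 7.83e-12). Gm5431 (Irgb9b8) had 36 and 56 against 234 and 208 counts, a rise of 2.32 ± 0.21 with an edgeR quasi-likelihood adjusted p of 1.49e-08. Gm12185 (Irgb2b1) had 34 and 26 against 165 and 91 counts, a rise of 2.13 ± 0.31 with an edgeR quasi-likelihood adjusted p of 1.45e-05. The rows of Gm12185 and Tgtp1 share 223 exonic bases on the same strand, 3.99% of Gm12185's and 6.96% of Tgtp1's. Of 100-base windows, 20.6% of Gm5431's and 7.41% of Gm12185's occur in another gene, so the counts of both loci are uncertain.

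The smaller rises among these loci were those of 9930111J21Rik1 (0.50 ± 0.10, edgeR quasi-likelihood adjusted p = 6.23e-04) and 9930111J21Rik2 (0.44 ± 0.072, edgeR quasi-likelihood adjusted p = 6.47e-05). Of their 100-base windows, 70.5% and 48.3% occur in another gene, mostly each other, so their split is uncertain. Irgq, a distant relative of the IRGs, had 449 and 477 wild-type counts against 428 and 461. Its change was -0.0031 ± 0.11 (edgeR quasi-likelihood adjusted p = 0.990), and the genotypes overlapped. In the RefSeq promoters, Gm12185 held the GAS letters at -86 and the ISRE core at -75, the arrangement seen in Igtp. Gm12250 held 1 GAS match and 2 ISRE cores, and 9930111J21Rik1 held 1 ISRE core. Gm5431, 9930111J21Rik2 and Irgq held neither motif. The other 5 loci were too low to test. Gm4951 had 6 and 2 against 7 and 3 counts, Gm4841 had 0 and 2 against 7 and 9, F830016B08Rik had 2 and 3 in the cKO-labelled libraries only, Gm12187 had 2 in cKO-labelled library 1 only, and Irgc1 had 9 in wild-type library 2 only. A count of 0 allows a level of up to 0.153 to 0.173 CPM.

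The genes around the IRG loci moved in both directions or not at all. Of 29 rows outside the IRG lists within 100 kb of one of the 7 genes, 14 were tested, with a median change of 0.061. Of these 14, 3 were called higher, 2 lower and 9 neither, where 12.2% of all genes tested were higher and 9.54% lower. So few genes cannot be told apart from those shares. Olfr56, an olfactory receptor row that spans Ifi47 and shares 111 exonic bases with it on the same strand, had 35 and 57 against 118 and 101 counts and rose by 1.31 ± 0.26 (edgeR quasi-likelihood adjusted p = 6.93e-04). Psme2b, a proteasome activator gene copy, rose by 0.38 ± 0.060 (edgeR quasi-likelihood adjusted p = 4.46e-05). Smim3, near Iigp1, rose by 0.40 ± 0.074 (edgeR quasi-likelihood adjusted p = 3.28e-04). Rack1, a ribosome scaffold protein, fell by 0.25 (edgeR quasi-likelihood adjusted p = 0.00102), a call lost without wild-type library 1 (adjusted p = 0.09). Zfp692 fell by 0.38 (edgeR quasi-likelihood adjusted p = 0.0110), a call lost without wild-type library 1 (adjusted p = 0.142), without cKO-labelled library 2 (0.086), with the GC trend removed (0.101) and by DESeq2 (0.0573). Trim41, Trim7, Gm12184, Gm16170, Gm12188, Cnot8, Gemin5, Mrpl22 and Zfp672 did not pass, with changes from -0.16 for Trim41 to 0.78 for Gm12188.

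**Figure D4:**
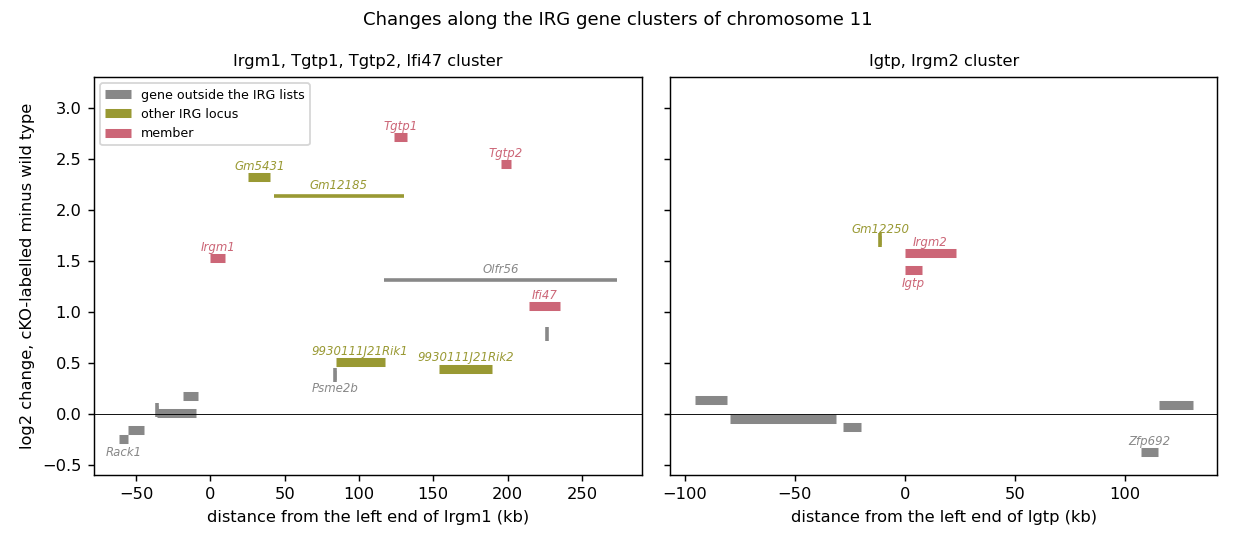
Log2 change, cKO-labelled minus wild type, of the tested genes along the 2 IRG clusters of chromosome 11; each bar spans a gene's deposited start and end, as distance in kb from the left end of Irgm1 or Igtp, and short genes are drawn as vertical ticks. IRG bars lie between 0.44 and 2.72, and the genes outside the IRG lists, named where called, lie between -0.38 and 1.31.

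The machinery that meets IRG proteins at the vacuole was read from lists of known partners. Of 11 guanylate-binding protein genes, 10 were tested and 9 were higher, with a median change of 1.27. Over all genes tested, 12.2% were higher. The smallest adjusted p-values belonged to Gbp6 (2.65 ± 0.12, edgeR quasi-likelihood adjusted p = 2.01e-14), Gbp4 (1.44 ± 0.065, adjusted p = 4.39e-14) and Gbp2 (1.67 ± 0.084, adjusted p = 3.21e-13). Gbp2b changed by 0.31 ± 0.19 and did not pass (adjusted p = 0.268). The other interferon-inducible GTPases tested, Mx1 (3.15 ± 0.098), Mx2 (2.65 ± 0.14), Gm4070 (1.83 ± 0.15) and Gvin1 (1.44 ± 0.14), were all 4 higher.

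The ATG8 conjugation genes, which work in autophagy in most cells, had a median change of 0.0996. Of the 10 tested, none was higher by edgeR's quasi-likelihood test or by DESeq2, where edgeR called 12.2% of all genes tested higher. At an unadjusted p under 0.05, 1 was higher and 2 were lower. Atg7, which activates ATG8 for conjugation, changed by -0.27 ± 0.10 and did not pass (edgeR quasi-likelihood adjusted p = 0.0553). Map1lc3b, an ATG8 protein, was the 1 gene called lower, where 9.54% of all genes tested were lower. It had 1194 and 1456 wild-type counts against 1075 and 1120, and fell by 0.21 on the log2 scale (SE 0.070, edgeR quasi-likelihood adjusted p = 0.0317). That call was lost without wild-type library 2, without cKO-labelled library 1, with the GC trend removed and by DESeq2. The ubiquitin ligases Traf6 (0.34 ± 0.066) and Trim21 (0.52 ± 0.086) and the ubiquitin receptor Sqstm1, or p62 (0.58 ± 0.065), were all 3 higher.

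Interferon signalling genes rose in part, where 12.2% of all genes tested were higher. Of 6 genes on the interferon-gamma side, 4 were higher, among them Irf1 (0.75 ± 0.062), Jak2 (0.64 ± 0.062) and Ifngr2 (0.19 ± 0.069, edgeR quasi-likelihood adjusted p = 0.0479). Ifngr1 and Jak1 did not pass. Ifngr2 lay just under the threshold. Under several alternatives, among them upper-quartile scaling, no filter and DESeq2, only 3 of the 6 were higher. Of 6 on the type I side, 3 were higher, among them Irf7 (2.45 ± 0.080), while Ifnar1, Ifnar2 and Tyk2 changed by -0.048 to 0.021 and did not pass. Of 4 feedback genes, Usp18 (3.13 ± 0.079) and Socs1 (1.17 ± 0.13) rose, and Socs3 fell by 0.77 on the log2 scale (SE 0.14, edgeR quasi-likelihood adjusted p = 2.15e-04). The 4th, Pias1, changed by 0.11 ± 0.078 and did not pass.

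Transcripts of the interferons themselves were scarce. Ifng, the gene of interferon-gamma, had 5 and 2 wild-type counts against 15 and 18, a change of 2.25 ± 0.70 (edgeR quasi-likelihood adjusted p = 0.0226). That call was lost without cKO-labelled library 1 and by DESeq2. Ifnb1 had 0 and 1 against 1 and 10 counts, and Ifna4 had 20 and 4 counts in the cKO-labelled libraries and none in wild type. The other 7 interferon genes listed had at most 4 counts in a library.

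**Figure D5:**
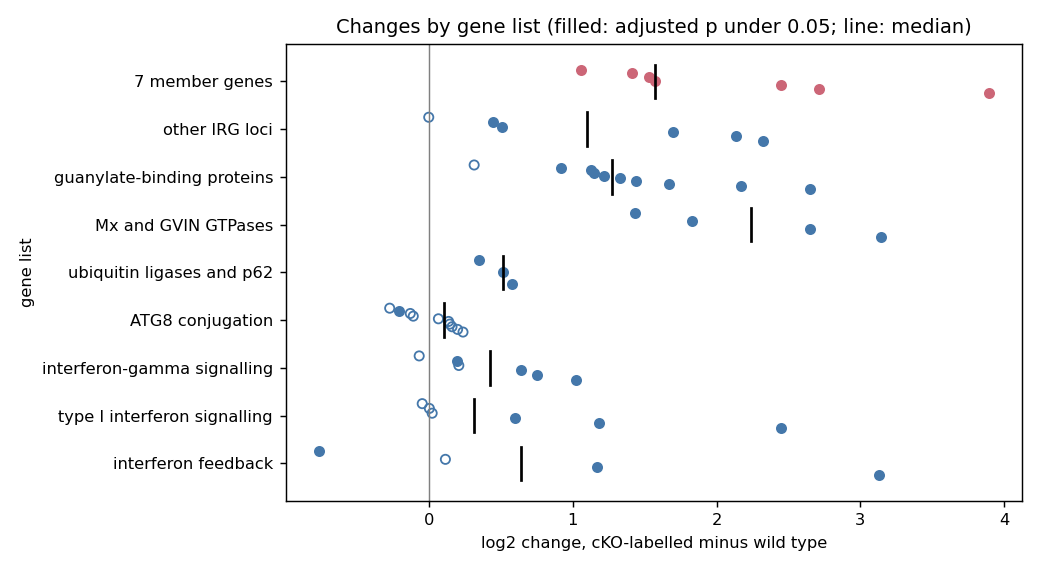
Log2 change, cKO-labelled minus wild type, of each tested gene of the 7 IRG genes and 8 other lists, n = 2 libraries per genotype; filled circles have an adjusted p under 0.05 and the vertical line is the list's median. The 7 IRG genes have a median of 1.57, the guanylate-binding proteins 1.27 and the ATG8 conjugation genes 0.0996.

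The genes whose 4-library pattern lay nearest to the mean of the 7 IRG genes, by Euclidean distance of log2 CPM centred on wild type, were Xlr3b (0.130), Ifit2 (0.131), AW011738 (0.160), Oas1a (0.175) and Oasl1 (0.185). Ifit2, Oas1a and Oasl1 are interferon-stimulated genes of antiviral defence. Ifit2 went from 10.3 and 10.8 CPM to 46.9 and 38.3 CPM. The IRG genes themselves lay between 0.557 (Tgtp2) and 2.31 (Iigp1) from their own mean. The 5 genes were picked for the smallest distances, so their lying closer follows largely from that choice.

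B-cell identity held in every library: Cd79a, a part of the B-cell receptor, stood at 658, 623, 501 and 511 FPKM. Summed over 6 B-cell markers, the cKO-labelled libraries were at the lower level given above, with 5 of the 6 lower. Of all genes tested, 9.54% were lower and 12.2% higher. Of 6 dendritic cell markers, Flt3 (1.61), Zbtb46 (0.64) and Itgax (2.40) were higher, Xcr1 did not pass, and Clec9a and Siglech, at 14 counts or fewer, were not tested. Macrophage markers summed to 5.19 to 8.16 CPM in any library and T-cell markers to 2.09 to 3.72 CPM. NK-cell markers went from 0.232 and 0.153 CPM in wild type to 0.833 and 0.860 CPM, and none could be tested. Neutrophil markers went from 1.04 and 0.712 CPM to 2.165 and 3.32 CPM, with S100a9 higher (1.67 ± 0.52) and Ly6g at 0 in all libraries. Erythroid markers went from 0.812 and 1.27 CPM to 3.78 and 3.61 CPM, with Hbb-bs (2.25 ± 0.52) and Hba-a1 (1.79 ± 0.63) higher. The part of these markers in the IRG rise was not tested. The summed IRG counts, 238 to 711 CPM, exceeded each marker sum except that of the B-cell markers. Such sums depend on which genes are listed, so they do not show which cells the IRG transcripts came from.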

How the data were processed

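Per the labels' protocols, poly(A) RNA went into NEBNext Ultra libraries, a kit that leaves strand unmarked. The submitters' processing notes name HISAT2 2.0.1 and HTSeq 0.6.1 on GRCm38, besides cutadapt 1.9.1 and bcl2fastq 2.17.1.14. Roles, settings, read length, strand handling and annotation release: not given in the sources used here. Deposited values are whole-number read counts per gene and, in the same table, FPKM values. Recomputed from counts, exonic lengths and library totals, all 221604 deposited FPKM values lay within 0.0051. Ribosomal RNA rows took 0.0947% to 0.525% of counts, the most in wild-type library 2. No replicates were merged, since their counts differed beyond sampling noise (chi-square per gene 9.16 within wild type and 4.63 within cKO-labelled, and 5.06 and 4.60 without the ribosomal RNA rows).

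Counts were tested with edgeR 4.0.16 in R 4.3.3 (filterByExpr with a minimum count of 10 and a minimum total of 15, TMM, quasi-likelihood test on all 4 libraries, Benjamini-Hochberg over 14180 genes, threshold 0.05). The fit was tested on simulated data first. CPM values use TMM-scaled library sizes for tested genes. The patterns nearest to the IRG mean were found among genes averaging 5 CPM or more, with a pseudocount of 0.5 CPM. Alternatives were DESeq2 1.42.0, other scalings, no filter, each library left out, a replicate block, removal of a trend with GC content and the Tgtp pair summed. GENCODE M21 (99.53% of rows matched by identifier) supplied gene types and transcripts, and RefSeq supplied promoters and synonyms. A planned search of protein sequences was not run.

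Named genes were the 7 IRG genes, the other IRG loci, per list the 3 called genes of smallest adjusted p and any called lower, tested neighbours, Adar, and the 5 nearest patterns. Some of these are not reported here. Markers, interferon genes and genes of the lists that did not pass are named besides. The members and lists were chosen with earlier results of these data known.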

Additional observations from a re-analysis of the deposited data

How the results depend on the processing

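Under all 11 alternatives (12 for Tgtp1 and Tgtp2), each of the 7 IRG genes kept its direction and its call, with log2 changes of 1.48 to 1.54 for Irgm1, 1.41 to 1.73 for Irgm2, 1.35 to 1.46 for Igtp, 1.01 to 1.09 for Ifi47, 3.64 to 4.11 for Iigp1, 2.43 to 2.95 for Tgtp1 and 2.34 to 2.55 for Tgtp2. The largest adjusted p was 3.87e-08, for Tgtp1 with the GC trend removed. Over all genes, edgeR called 1727 higher and 1353 lower, and the DESeq2 Wald test called 1235 higher and 795 lower; the cause was not tested. Upper-quartile scaling called 1615 higher and 1628 lower. Leaving out each library in turn gave 1293 to 1469 higher and 984 to 1252 lower.

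With the replicate number as a block, edgeR called 1904 genes higher and 1594 lower. Same-numbered libraries did not deviate together (correlation -0.017), so the numbers were not taken as pairs. Under upper-quartile scaling and under the block, 2 ATG8 conjugation genes were lower, and with no filter 2 interferon genes were higher. Removal of the ribosomal RNA rows was chosen after seeing the data and called 1726 higher and 1353 lower. With 2 libraries per genotype and the Tgtp pair's shared sequence, small changes of low genes and the levels and split of that pair are the least certain values.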
